A study of Homo sapiens with 8 samples.

Results

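The response of wild-type (WT) MDA-MB-231 cells to ionizing radiation is described here from the cells of 4 libraries, 2 irradiated and 2 untreated. MDA-MB-231 is a human triple-negative breast cancer line. The irradiated group was WT cells given 5 Gy and kept in culture for 4 h, and the group it was set against was WT cells with no irradiation named in their labels. A cell was used when at least 1000 genes were detected in it and it held at least 5000 counts. All 192 WT cells in the files met this, 96 irradiated and 96 untreated with 48 in each library, out of 363 kept cells in the 8 libraries of the series. The remaining libraries held ATM knockdown cells of the same line, 2 given the same dose and time and 2 untreated. All cells grew in DMEM with serum, were picked one at a time with a mouth pipette and were sequenced with a modified Smart-seq2 protocol that reads the 3' end of mRNA. The study is of 1 line, and it is not stated that replicate libraries were grown as separate cultures.

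Irradiation breaks DNA, and the kinases ATM and ATR, which sense the damage, slow or stop the cell cycle at checkpoints. Before a cell copies its DNA, origins of replication are licensed by loading the MCM helicase, and genes for this step and for the replication fork are switched on together by E2F transcription factors late in G1. Cells that are growing also make ribosomes, a process that draws on nucleolar assembly factors, amino acid import and polyamines.

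The kept cells held 9321268 and 19675584 counts in the irradiated libraries and 24256471 and 19973545 counts in the untreated ones, so irradiated library 1 had the fewest. The median cell had 6400.5 and 6912.5 detected genes in the irradiated libraries, against 7328.5 and 7276 in the untreated libraries. Mitochondrial transcripts made up 9.76% and 10.3% of counts in irradiated libraries and 9.36% and 9.63% in untreated ones. The 10 largest cells of a library held 39.3% to 49.6% of its counts. All 14 markers of the line, such as VIM, CD44 and AXL, were detected, with summed levels of 31270 and 29832 CPM in irradiated and 29985 and 35731 CPM in untreated libraries. Of 13 luminal and hormone receptor markers 11 had counts, with sums of 323 and 285 CPM in irradiated and 377 and 379 CPM in untreated libraries, and ESR1 and FOXA1 were at 0 in all 4. The highest of them was XBP1, at 149 and 122 CPM in irradiated and 146 and 134 CPM in untreated libraries, and the luminal transcription factor GATA3 stood at 52.0 and 41.6 CPM in irradiated and 42.9 and 49.8 CPM in untreated libraries. Of 16 leukocyte markers 10 were at 0, and the summed level of the list was 52.2 and 65.8 CPM in irradiated libraries and 116 and 128 CPM in untreated ones. Most of that sum was CD14, at 42.5 and 59.1 CPM in irradiated and 105 and 107 CPM in untreated libraries (log2 change -1.06, SE 0.294, adjusted p = 0.0891), and its part in the results below was not tested. Of 13 markers of an embryonic kidney line 8 were at 0, with sums of 102 and 98.1 CPM in irradiated and 98.5 and 101 CPM in untreated libraries.

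Levels are given in CPM, the count scaled to 1e6 counts of a library's effective total after summing its kept cells, and changes as log2 of irradiated over untreated with the standard error (SE). A gene was called when its p-value from edgeR's quasi-likelihood test, adjusted by Benjamini-Hochberg over all 12456 genes tested, was below 0.05. In WT cells 205 genes were called, 1.65% of those tested, with 113 higher after irradiation (0.907%) and 92 lower (0.739%). An unadjusted p below 0.05 was reached by 1734 genes (13.9%), 48.8% of genes had a change above 0, and the median change of all genes was -0.01. The irradiated and untreated levels of all 205 called genes did not overlap, as was the case for 44.0% of all genes. Of the called genes 62 changed more than 2-fold upward and 67 more than 2-fold downward. The 4 WT libraries were compared in a fit that took its estimate of spread from all 8 libraries, and in a fit of the WT libraries alone 33 genes were called, 5 higher and 28 lower. Of the 101 called genes named here by a fixed rule 81 were not called in that fit, at 0.0543 to 0.182. With the cells left out whose total count was above 2 times the median of their library, 46 of the 101 lost their call, at 0.0535 to 0.806. POLE4, SLBP, FAM111B, SRM, AKR1B1, SLC5A3, MRPS6, AKR1C1, AKR1C2, AKR1C3, CST4, SOX4, TRIM29, HSPH1, TIMP3, CLDN4 and PLOD2 were called in every fit that tested them.

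Of 29 genes that license and fire replication origins 8 were called higher after irradiation. The promoters of 3 of them, of CLSPN from the replication fork list and of POLE4, a replication gene in neither list, are shown first. They were picked because each holds a match to a short E2F motif. Each line gives 250 bases before to 50 bases after the annotated start, 5′ to 3′ on the gene's strand, from RefSeq on GRCh38.p14, with matches to an E2F motif (TTCCCGC or TTGGCGC, on either strand) in capitals. The genes are CDT1 (chr16:88803539-88803838, + strand) and MCM3 (chr6:52284693-52284992, - strand), which hold 2 matches each, ORC1 (chr1:52404374-52404673, - strand), CLSPN (chr1:35769929-35770228, - strand) and POLE4 (chr2:74958393-74958692, + strand).
CDT1: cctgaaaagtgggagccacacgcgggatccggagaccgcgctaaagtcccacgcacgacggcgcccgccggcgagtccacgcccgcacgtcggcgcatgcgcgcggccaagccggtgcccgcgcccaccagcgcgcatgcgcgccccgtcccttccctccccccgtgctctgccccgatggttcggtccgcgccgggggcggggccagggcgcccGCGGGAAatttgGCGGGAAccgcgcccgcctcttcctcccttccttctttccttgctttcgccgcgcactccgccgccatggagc
MCM3: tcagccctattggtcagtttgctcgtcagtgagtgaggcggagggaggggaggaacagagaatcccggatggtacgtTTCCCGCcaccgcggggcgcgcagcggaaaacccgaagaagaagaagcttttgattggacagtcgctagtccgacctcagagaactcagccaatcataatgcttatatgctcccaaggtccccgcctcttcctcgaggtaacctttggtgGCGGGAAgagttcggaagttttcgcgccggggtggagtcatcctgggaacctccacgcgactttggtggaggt
ORC1: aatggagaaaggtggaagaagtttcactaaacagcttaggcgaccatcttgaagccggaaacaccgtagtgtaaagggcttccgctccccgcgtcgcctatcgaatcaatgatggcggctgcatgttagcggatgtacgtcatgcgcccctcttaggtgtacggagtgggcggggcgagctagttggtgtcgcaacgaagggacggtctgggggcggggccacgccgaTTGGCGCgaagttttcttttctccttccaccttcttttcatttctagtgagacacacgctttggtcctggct
CLSPN: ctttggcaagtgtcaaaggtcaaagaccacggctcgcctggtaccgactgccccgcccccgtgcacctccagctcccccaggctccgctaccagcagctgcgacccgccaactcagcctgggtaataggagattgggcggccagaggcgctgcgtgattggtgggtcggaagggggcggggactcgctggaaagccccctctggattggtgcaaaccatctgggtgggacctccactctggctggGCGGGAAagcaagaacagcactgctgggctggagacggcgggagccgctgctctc
POLE4: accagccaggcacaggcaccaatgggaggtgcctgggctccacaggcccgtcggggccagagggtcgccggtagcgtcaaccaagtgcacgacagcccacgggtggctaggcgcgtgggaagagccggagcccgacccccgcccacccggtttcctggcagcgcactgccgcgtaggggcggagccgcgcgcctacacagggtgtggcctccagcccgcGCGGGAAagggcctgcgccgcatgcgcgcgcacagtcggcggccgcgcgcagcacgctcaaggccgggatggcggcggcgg
Counted from the annotated start, the first base of the match stood at -35 and -23 in CDT1, at -173 and -23 in MCM3, at -22 in ORC1, at -5 in CLSPN and at -31 in POLE4. Such a match was present in 14 of the 25 licensing genes with a promoter entry (56.0%) and in 22 of 39 genes of the replication fork list (56.4%). It was present in 9.23% of all 35116 promoters, in 14.8% of the tested genes with an entry, in 25.8% of those called higher and in 16.4% of those called lower. No match was found in this window for MCM10, GMNN, POLD2, SLBP, RRM2, FEN1 or ASF1B, which were also called higher. Of the called genes with an entry, 4 of 6 in the licensing list and 5 of 10 in the replication fork list held a match. These shares describe sequence and were not tested.

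Of the 29 measured genes of origin licensing and firing 24 had a change above 0 and 5 a change below it, with a median log2 change of 0.86, and the 8 called higher were 27.6%, against 0.907% of all genes tested. CDT1, which with CDC6 loads the MCM helicase (ENSG00000167513.8), stood at 45.2 and 66.8 CPM in irradiated cells, against 20.4 and 15.1 CPM in untreated cells (log2 change 1.66, SE 0.345, adjusted p = 0.0314). CDC6 stood at 91.7 and 126 CPM in irradiated and 43.1 and 61.3 CPM in untreated libraries (1.06, SE 0.254, adjusted p = 0.0492). Both irradiated libraries lay above both untreated ones for each gene. ORC1, the largest subunit of the origin recognition complex, was low in all libraries, at 23.0 and 24.3 CPM after irradiation and 2.94 and 4.46 CPM without (2.68, SE 0.538, adjusted p = 0.0277). GMNN, which encodes geminin, the inhibitor of CDT1, rose alongside it, to 181 and 228 CPM in irradiated cells, against 94.6 and 111 CPM in untreated cells (0.99, adjusted p = 0.0173). Of the MCM2-7 helicase, 3 subunits were called. MCM4 stood at 108 and 128 CPM in irradiated and 33.4 and 48.5 CPM in untreated libraries (1.53, adjusted p = 0.0211), and MCM3 and MCM5 each changed by 1.17 (adjusted p = 0.0253 and 0.0376). MCM2 was not called: irradiated library 1, at 35.9 CPM, lay between the untreated libraries at 27.9 and 43.4 CPM, while irradiated library 2 stood at 107 CPM (adjusted p = 0.294). MCM10, which helps convert the loaded helicase into a fork, stood at 48.1 and 80.1 CPM in irradiated and 18.5 and 22.5 CPM in untreated libraries (1.65, adjusted p = 0.0216). Without irradiated library 2, all 8 genes lost their call, at adjusted p-values of 0.0661 for MCM4 to 0.381 for MCM5, and in the fit of WT libraries alone none of the 8 was called (0.0543 to 0.142). ORC1 also lost it without irradiated library 1 (0.0504), ORC1 and CDC6 without untreated library 1 (0.0671 and 0.192), and CDT1 and MCM5 without untreated library 2 (0.0775 and 0.0671).

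Genes of the replication fork and of nucleotide synthesis were higher in 45 of 48 cases, with a median of 0.83. Of the 48, 11 (22.9%) were called, all higher, against 0.907% of all genes tested. The largest change was that of FAM111B (ENSG00000189057.10), a protease, at 44.9 and 65.4 CPM in irradiated and 10.8 and 14.5 CPM in untreated libraries (2.13, SE 0.339, adjusted p = 0.00758). SLBP, which binds the stem loop of histone mRNA, stood at 226 and 334 CPM after irradiation and at 101 and 106 CPM without (1.43, SE 0.200, adjusted p = 0.00314). Both were called in every alternative fit that tested them. The sliding clamp PCNA stood at 303 and 605 CPM in irradiated and 213 and 239 CPM in untreated libraries (1.01, SE 0.234, adjusted p = 0.0436), so the irradiated libraries differed from each other more than the untreated ones did. The polymerase delta subunit POLD2 was even between replicates, at 234 and 202 CPM in irradiated and 105 and 107 CPM in untreated libraries (1.04, SE 0.164, adjusted p = 0.00707). Both subunits of ribonucleotide reductase, which makes deoxyribonucleotides, were called: RRM1 stood at 190 and 168 CPM in irradiated and 109 and 96.5 CPM in untreated libraries, and RRM2 at 160 and 296 CPM in irradiated and 114 and 64.1 CPM in untreated libraries. The flap nuclease FEN1 (0.97), the checkpoint adaptor CLSPN (1.36) and the maintenance methylation factor UHRF1 (1.30) also rose, as did the histone chaperones CHAF1B (1.56) and ASF1B (1.07). POLE4, a small subunit of polymerase epsilon outside the list, stood at 150 and 121 CPM in irradiated and 45.8 and 52.5 CPM in untreated libraries (1.46, SE 0.213, adjusted p = 0.00381). Replication-dependent histones, the partners of SLBP, were higher in 9 of 16 cases with a median of 0.12. None was called by edgeR, with 2 at an unadjusted p below 0.05 and 1 called lower by each of DESeq2's Wald test and limma. Of the 23 histone genes in the list 18 had a count. How fully a protocol that reads the 3' end of mRNA captures histone transcripts was not tested, so these values may not reflect their whole pool.

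Among these genes, the call depended on single libraries in several cases. Without irradiated library 2, POLD2, SLBP, FAM111B and POLE4 stayed called, and the other 8 lay at 0.0866 to 0.445. Without irradiated library 1, RRM1 and ASF1B were lost (0.175 and 0.114). Without untreated library 1, PCNA, FEN1, RRM1, CHAF1B, ASF1B and UHRF1 were lost (0.0509 to 0.151), and without untreated library 2, RRM1 and RRM2 (0.127 and 0.0512). CHAF1B overlaps MORC3, and FEN1 overlaps TMEM258 and FADS2, and the use of strand in counting is not stated.

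**Figure D1:**
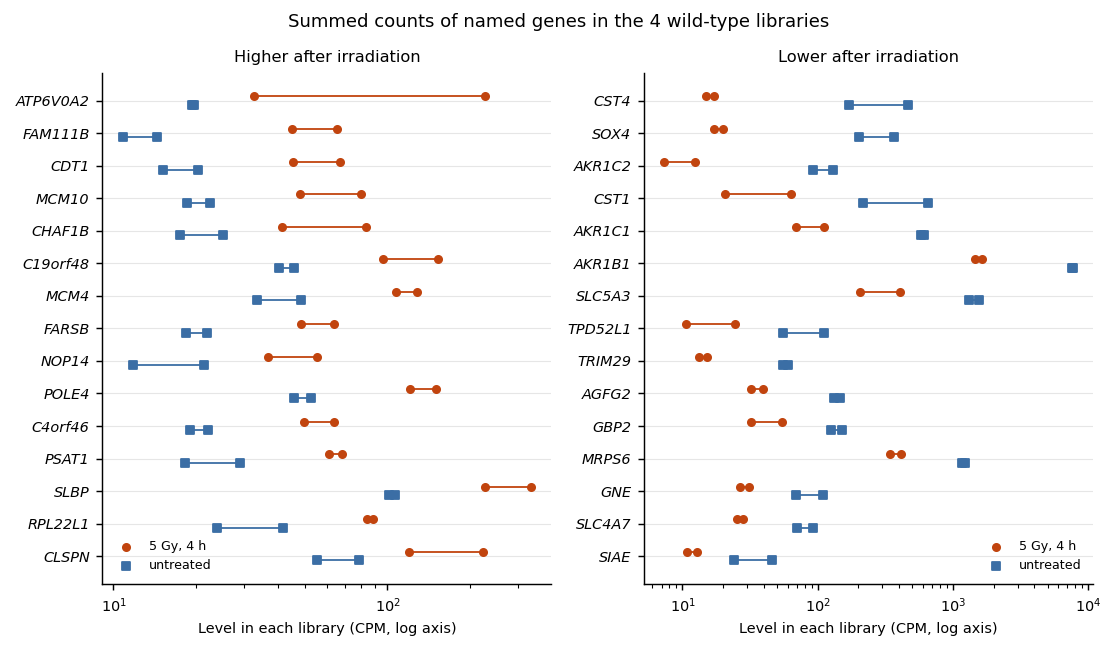
Level of each of the 15 most increased and 15 most decreased called genes averaging 5 or more in log2 CPM, in CPM on a log axis, 1 point per WT library. The irradiated points lie to 1 side of the untreated points for every gene because the rule that picked the genes required it. For ATP6V0A2 the irradiated points lie far apart, at 228 and 32.5 CPM.

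Regulators of the G1/S step gave 1 call, higher after irradiation, a share of 3.57% against 0.907% of all genes tested. Of 28 measured cyclins, kinases, inhibitors and E2F factors 21 were higher, with a median of 0.33, and TFDP1, the DNA-binding partner of E2F factors, was the 1 called, at 208 and 251 CPM in irradiated and 121 and 138 CPM in untreated libraries (0.83, adjusted p = 0.0359). It lost its call without irradiated library 2 (0.207) and without untreated library 1 (0.117). E2F1 stood at 60.0 and 73.0 CPM in irradiated and 34.9 and 43.2 CPM in untreated cells (0.77, SE 0.282, adjusted p = 0.210). The S phase cyclin CCNE2 was near the limit of detection, at 6.47 and 5.96 CPM after irradiation and 0.166 and 2.15 CPM without (2.43, SE 1.09, adjusted p = 0.332).

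Mitotic genes differed more between replicates than between the groups. Of 59 genes of G2/M and mitosis 26 were higher, the median was -0.04 and edgeR called none, with 4 members at an unadjusted p below 0.05, 1 called lower by DESeq2's Wald test and 0 by limma. The summed level of the list was 12355 and 7207 CPM in irradiated libraries and 13824 and 6737 CPM in untreated ones, so 1 library of each group was high and the other low. Library numbers pair nothing between the groups. The kinase PLK1 followed that order, at 142 and 44.2 CPM in irradiated and 152 and 47.4 CPM in untreated libraries (-0.11, adjusted p = 0.959), as did cyclin B1 (CCNB1), at 534 and 150 CPM in irradiated and 430 and 281 CPM in untreated libraries (-0.06, adjusted p = 0.976). CDC20, MKI67 and TOP2A had log2 differences of 0.03, 0.10 and -0.26, and their groups overlapped. The median of the list ran from -0.65 without irradiated library 1 to 0.56 without untreated library 1, and up to 3 members were called higher and up to 7 lower when 1 library was left out. Of 49 members with a promoter entry 35 (71.4%) held the CHR motif TTTGAA or TTCGAA on either strand, against 16.4% of all promoters.

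Summed counts cannot tell more cells in a phase from more transcript per cell, so cells were also compared one by one after thinning each to 70000 counts, where 1 count is 14.3 CPM. This kept 38 and 46 irradiated and 43 and 46 untreated cells, and 19 shallower cells were left out. The median summed level of the replication fork list per cell was 4529 and 3929 CPM in irradiated libraries, against 2029 and 2293 CPM in untreated libraries. Of the irradiated cells 84.2% and 78.3% lay above the median of all untreated cells. The licensing list had medians of 1464 and 1807 CPM in irradiated and 857 and 621 CPM in untreated libraries. The mitotic list had medians of 7850 and 5029 CPM in irradiated libraries and 5629 and 2986 CPM in untreated ones, where the same library of each group was again the higher. With both lists cut at the medians of untreated cells, 2229 CPM for the fork and 3900 CPM for mitosis, a choice made after the values were seen, cells low for both made up 15.8% and 21.7% of irradiated and 39.5% and 50% of untreated cells. Cells high for the fork and low for mitosis made up 18.4% and 21.7% of irradiated cells (7 and 10) and 4.65% and 6.52% of untreated cells (2 and 3). Cells high for both made up 65.8% and 56.5% of irradiated and 44.2% and 43.5% of untreated cells. Cells low for the fork and high for mitosis numbered 0 and 0 in irradiated and 5 (11.6%) and 0 in untreated libraries, so the untreated libraries differed in this class. Within 10% of a cut lay 2 and 7 irradiated and 2 and 5 untreated cells. Within a library the 2 sums had a Spearman correlation across cells of 0.391 and 0.594 after irradiation and 0.713 and 0.791 without, values that share each cell's library and depth. With 2 libraries a group the smallest p of an exact permutation test is 0.333, so no test was made on these shares.

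**Figure D2:**
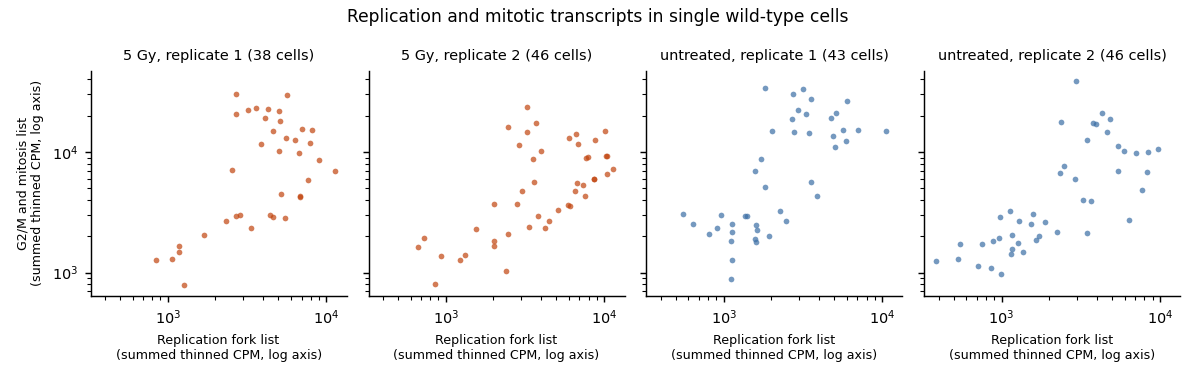
Summed level of the replication fork list against that of the G2/M and mitosis list in each cell thinned to 70000 counts, in CPM. Each WT library has 1 panel. The medians of the untreated cells, 2229 CPM for the fork and 3900 CPM for mitosis, are not drawn. Cells low for both lists by these cuts number 6 and 10 in the irradiated libraries and 17 and 23 in the untreated ones.

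Of the 3 lists of the DNA damage response, damage sensing and homologous recombination gave 1 call each and end joining none, shares of 4.35%, 3.13% and 0%, against 1.65% of all genes. Of 23 genes of damage sensing and checkpoints 15 were higher, with a median of 0.12, and RAD1, a part of the clamp loaded at damaged DNA, was called, at 82.3 and 114 CPM in irradiated and 49.8 and 35.1 CPM in untreated libraries (1.21, SE 0.251, adjusted p = 0.0301). RAD1 overlaps BRIX1, a ribosome assembly gene. ATM itself stood at 29.1 and 33.9 CPM in irradiated and 58.1 and 31.8 CPM in untreated cells, with overlap (-0.51, adjusted p = 0.630). Homologous recombination and Fanconi anaemia genes were higher in 26 of 32 cases with a median of 0.65, but only FANCC, of the Fanconi core complex, was called, at 30.8 and 26.4 CPM in irradiated and 8.70 and 4.82 CPM in untreated libraries (2.08, SE 0.434, adjusted p = 0.0314, and a change of 1.33 at an adjusted p of 0.321 without cells above 2 times the median). Of 16 genes of non-homologous end joining 10 were higher (median 0.23), 4 had an unadjusted p below 0.05, and none was called by edgeR, DESeq2's Wald test or limma. XRCC5, the large subunit of Ku, stood at 396 and 354 CPM in irradiated and 275 and 280 CPM in untreated libraries (0.43, adjusted p = 0.163). RAD1 was lost without irradiated library 2 (0.182) and untreated library 2 (0.101), and FANCC without irradiated library 1 (0.0936), irradiated library 2 (0.0684) and untreated library 2 (0.0957).

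Genes widely used as readouts of the checkpoint and of stress did not pass the test. CDKN1A, which encodes the kinase inhibitor p21, stood at 48.7 and 42.9 CPM in irradiated and 55.7 and 28.5 CPM in untreated cells (0.12, SE 0.312, adjusted p = 0.922). MDM2, a ubiquitin ligase gene, stood at 27.2 and 16.4 CPM in irradiated and 36.2 and 24.2 CPM in untreated cells (-0.48, SE 0.387, adjusted p = 0.637), and both genes' groups overlapped. The stress cytokine GDF15 was at 6.69 and 4.51 CPM in irradiated libraries and at 50.9 and 8.31 CPM in untreated ones, which differed from each other by more than the groups' nearest libraries did (-2.42, SE 0.987, adjusted p = 0.276). Apoptosis regulators were higher in 14 of 28 cases with a median of 0.00, and 1 (3.57%) was called higher, against 0.907% of all genes tested. Cytochrome c (CYCS), which serves both respiration and apoptosis, was the 1 called, at 511 and 524 CPM in irradiated and 284 and 337 CPM in untreated libraries (0.74, adjusted p = 0.0175). The annotation names 40 pseudogenes of CYCS, and its call was lost without irradiated library 2 (0.0654) and without untreated library 1 (0.0640).

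Ribosome biogenesis was the list with the most called genes: 49 of 57 were higher and the median was 0.75. In it 17 (29.8%) were called, all higher, against 0.907% of all genes tested. Nucleolin (NCL), which binds ribosomal RNA precursors, stood at 436 and 394 CPM in irradiated and 293 and 222 CPM in untreated libraries (0.69, adjusted p = 0.042). The RNA helicase DDX21 stood at 300 and 277 CPM after irradiation and 159 and 127 CPM without (1.01, SE 0.180, adjusted p = 0.0148), and nucleostemin (GNL3) at 162 and 142 CPM in irradiated and 69.9 and 75.7 CPM in untreated libraries (1.06, SE 0.186, adjusted p = 0.0141). In each case the irradiated libraries lay above the untreated ones and close to each other. DKC1, the pseudouridine synthase of small nucleolar RNPs, and NOP58, a core protein of a different class of these RNPs, rose by 0.88 and 0.80. The large subunit assembly factors BOP1 and WDR12, which act in 1 complex, rose by 1.19 and 1.16. The small subunit factors NOP14 and NOL6 rose by 1.47 and 1.35. NPM1, a nucleolar chaperone with 45 named pseudogenes, stood at 1096 and 1002 CPM in irradiated and 665 and 704 CPM in untreated libraries (0.62, adjusted p = 0.0234). The rest of the called genes were EBNA1BP2, MRTO4, NOP16, PA2G4, WDR43, C19orf48 and RPL22L1, with changes of 0.78 to 1.53. Without irradiated library 1, PA2G4, DDX21, GNL3, WDR12 and NOL6 stayed called and the other 12 lay at 0.0502 to 0.374, and without untreated library 1, 9 of the 17 were lost (0.0503 to 0.145). Without irradiated library 2, NCL, PA2G4, NOP58, DKC1, WDR12, BOP1, NOL6 and RPL22L1 were lost (0.0732 to 0.272), and without untreated library 2, NCL, PA2G4, NOP58, WDR12, BOP1, NOL6, RPL22L1 and NOP14 (0.0632 to 0.166), while WDR12 was also lost without irradiated knockdown library 1 (0.0506). In the fit of WT libraries alone none of the 17 was called (0.0607 to 0.182).

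Cytoplasmic ribosomal protein genes were higher in 71 of 78 cases, with a median of 0.31. Of the 78, 9 (11.5%) were called, all higher, against 0.907% of all genes tested. RPL35 stood at 2005 and 1954 CPM in irradiated and 1290.3 and 1323 CPM in untreated libraries (0.60, SE 0.103, adjusted p = 0.0125), and RPS2 at 1449 and 1412 CPM in irradiated and 851 and 992 CPM in untreated libraries (0.63, SE 0.116, adjusted p = 0.0172). Replicates were close for RPL35, while RPS2 differed more between the untreated libraries. The summed level of the list was 98449 and 99643 CPM in irradiated and 73260 and 85756 CPM in untreated libraries, so the untreated ones were uneven. In edgeR's fit of the WT libraries alone none of the 9 was called, with RPL35 at an adjusted p of 0.0700 and RPS2 at 0.0836. RPL35 and RPS2 were called with any 1 WT library left out, whereas RPS27A, RPL27 and RPS7 were lost without irradiated library 1, irradiated library 2 or untreated library 1 (0.0504 to 0.203), and RPL10A, RPL6 and RPL7 without irradiated library 1 or untreated library 1 (0.0698 to 0.192). The annotation names 20 pseudogenes of RPS2 and 61 of RPL7. Of 45 genes of the nuclear respiratory chain and ATP synthase 38 had a change above 0, with a median of 0.20, and 1 (2.22%) was called, the ATP synthase subunit ATP5G1 (0.70, adjusted p = 0.0452). It lost its call without irradiated library 2 (0.258), without untreated library 1 (0.172), in the WT libraries alone (0.146) and with DESeq2's size factors (0.0536). Of the 13 mitochondrially encoded genes 9 were higher (median 0.10), 6 had an unadjusted p below 0.05, and none was called by edgeR, while DESeq2's Wald test called 1 higher and limma 1 lower.

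Some genes that supply amino acids, and 1 gene of polyamine synthesis, were also among those called higher. SLC7A5 and SLC3A2, the 2 chains of the transporter that imports large neutral amino acids, were both called. SLC7A5 stood at 136 and 147 CPM in irradiated and 49.5 and 65.9 CPM in untreated libraries (1.30, SE 0.192, adjusted p = 0.00446), and SLC3A2 at 220 and 191 CPM in irradiated and 87.5 and 99.6 CPM in untreated libraries (1.13, SE 0.183, adjusted p = 0.00846). SRM, the spermidine synthase, had close replicates, at 231 and 254 CPM in irradiated and 103 and 108 CPM in untreated libraries (1.20, SE 0.148, adjusted p = 0.00140), and was called in every alternative fit. It was the 1 called of 12 measured genes of polyamine synthesis (8.33%, against 0.907% of all genes tested). Of these 12 genes 7 were higher and 5 lower, with a median of 0.10. PSAT1, of serine synthesis, stood at 68.1 and 61.3 CPM in irradiated and 18.3 and 29.1 CPM in untreated libraries (1.45, adjusted p = 0.0148), and CEBPG, a partner of the transcription factor ATF4, rose by 1.26. SLC7A5, SLC3A2, PSAT1 and CEBPG were the called members of the unfolded protein and ATF4 list (12.5%, against 0.907% of all genes tested). That list was higher in 20 of 32 cases with a median of 0.17. In the WT libraries alone SLC7A5, SLC3A2 and PSAT1 lost their calls (0.0607, 0.0543 and 0.0911). SLC3A2 and PSAT1 also lost them without cells above 2 times the median, with changes of 0.78 and 1.02 (0.0992 and 0.151). Of 21 cytoplasmic tRNA synthetase genes 18 were higher (median 0.32), and 2 (9.52%) were called higher. They were FARSB (1.47) and YARS (1.03, and 0.52 at an adjusted p of 0.410 without cells above 2 times the median). CEBPG was lost without either irradiated library (0.0687 and 0.118) and without untreated library 2 (0.113), FARSB without irradiated library 1 (0.0607), and YARS without irradiated library 2 (0.157) and untreated library 1 (0.117).

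**Figure D3:**
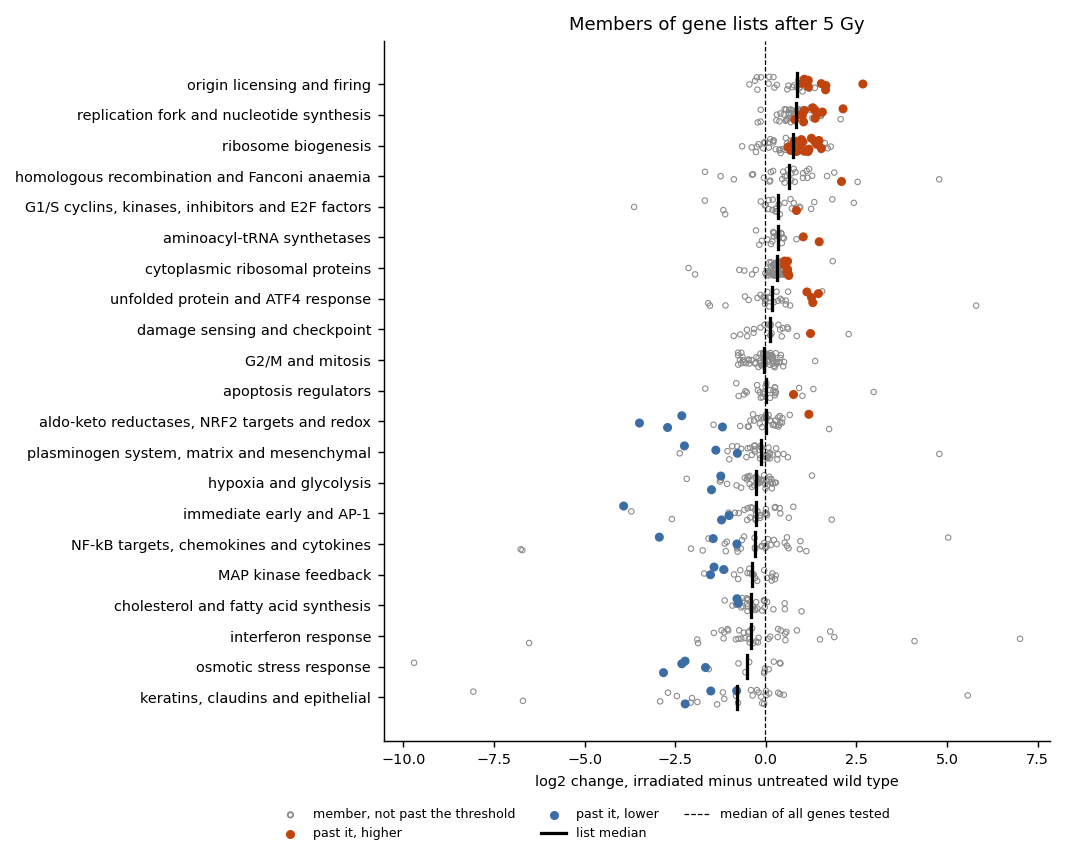
Log2 change (irradiated over untreated) of each measured member of the gene lists named at the left, 1 row per list, with called genes marked, list medians as bars and the median of all genes, -0.01, as a dashed line. Medians of the licensing, replication fork and ribosome biogenesis lists stand at 0.86, 0.83 and 0.75, and that of the osmotic stress list at -0.51.

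Of the 16 measured genes of the osmotic stress list 12 were lower after irradiation, with a median of -0.51, and 4 (25%) were called, all lower, against 0.739% of all genes tested. The list includes MRPS6, which encodes a protein of the mitochondrial ribosome and overlaps SLC5A3, so 3 of the 4 called genes, AKR1B1, SLC5A3 and AQP3, are known to act in osmotic balance. AKR1B1 (ENSG00000085662.13, chr7:134442350-134459284 on GRCh38), the aldose reductase that makes the osmolyte sorbitol, stood at 1625 and 1444 CPM in irradiated cells, against 7637 and 7660 CPM in untreated cells (log2 change -2.32, SE 0.102, adjusted p = 5.3e-09). SLC5A3, the transporter that imports the osmolyte myo-inositol, stood at 206 and 404 CPM in irradiated and 1306 and 1556 CPM in untreated libraries (-2.23, SE 0.248, adjusted p = 0.000529). MRPS6 stood at 343 and 415 CPM in irradiated and 1169 and 1234 CPM in untreated libraries (-1.66, SE 0.145, adjusted p = 3.1e-05). The gap between the groups was larger than the gap between replicates for all 3. The summed level of the list was 2922 and 3086 CPM in irradiated and 11228 and 11362 CPM in untreated libraries, most of it AKR1B1. The water and glycerol channel AQP3 was the last called member, at 2.79 and 5.29 CPM after irradiation and 37.3 and 20.6 CPM without (-2.82, adjusted p = 0.0376), and lost its call without irradiated library 1 (0.159), irradiated library 2 (0.0810) or untreated library 1 (0.193). AKR1B1, SLC5A3 and MRPS6 were called in every alternative fit.

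SLC5A3 and MRPS6 are neighbours in the annotation and cannot be fully told apart in these counts. SLC5A3 (chr21:34073570-34106262) lies on the same strand within the span of MRPS6 (chr21:34073224-34143034). RefSeq gives both the same start, so 1 promoter window serves both (chr21:34073328-34073627, + strand, GRCh38.p14), shown because the genes fell together. For genes that fell, only matches to the AP-1 motif (TGANTCA) are put in capitals, and this window holds none. It also holds no match to the E2F, CHR or CCAAT motifs on either strand.
SLC5A3 and MRPS6: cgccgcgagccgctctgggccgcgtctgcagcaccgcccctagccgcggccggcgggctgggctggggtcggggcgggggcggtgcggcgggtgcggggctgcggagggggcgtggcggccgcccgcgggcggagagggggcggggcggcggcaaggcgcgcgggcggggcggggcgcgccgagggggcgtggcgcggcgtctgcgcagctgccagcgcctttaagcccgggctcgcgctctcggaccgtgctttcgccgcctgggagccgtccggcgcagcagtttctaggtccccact
Across thinned cells within a library, SLC5A3 and MRPS6 had Spearman correlations of 0.615 and 0.352 in irradiated and 0.585 and 0.476 in untreated libraries, where cells share library and depth and the genes may share reads.

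The fall of these genes was present across the cells and not in a few of them. After thinning, the median cell held 1157 and 1157 CPM of AKR1B1 in irradiated libraries and 6657 and 6664 CPM in untreated libraries, and 0 of the 38 and 46 irradiated cells lay above the median of untreated cells. For SLC5A3 the medians were 114 and 321 CPM in irradiated and 814 and 1350 CPM in untreated libraries, with 0% and 4.35% of irradiated cells above the untreated median. MRPS6 had medians of 271 and 329 CPM in irradiated and 1129 and 957 CPM in untreated cells. Among the genes that rose, SLBP had medians of 186 and 214 CPM in irradiated and 71.4 and 57.1 CPM in untreated libraries, with 81.6% and 87.0% of irradiated cells above the untreated median. FAM111B, in contrast, was detected in a minority of cells, 14 of 38 and 22 of 46 irradiated cells (36.8% and 47.8%) and 11 of 43 and 11 of 46 untreated cells (25.6% and 23.9%). CDT1 was detected in 60.5% and 76.1% of irradiated and 27.9% and 30.4% of untreated cells. The ribosome biogenesis sum was higher than the untreated median in 92.1% and 87.0% of irradiated cells, with medians of 4879 and 4793 CPM in irradiated and 3286 and 3343 CPM in untreated libraries.

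**Figure D4:**
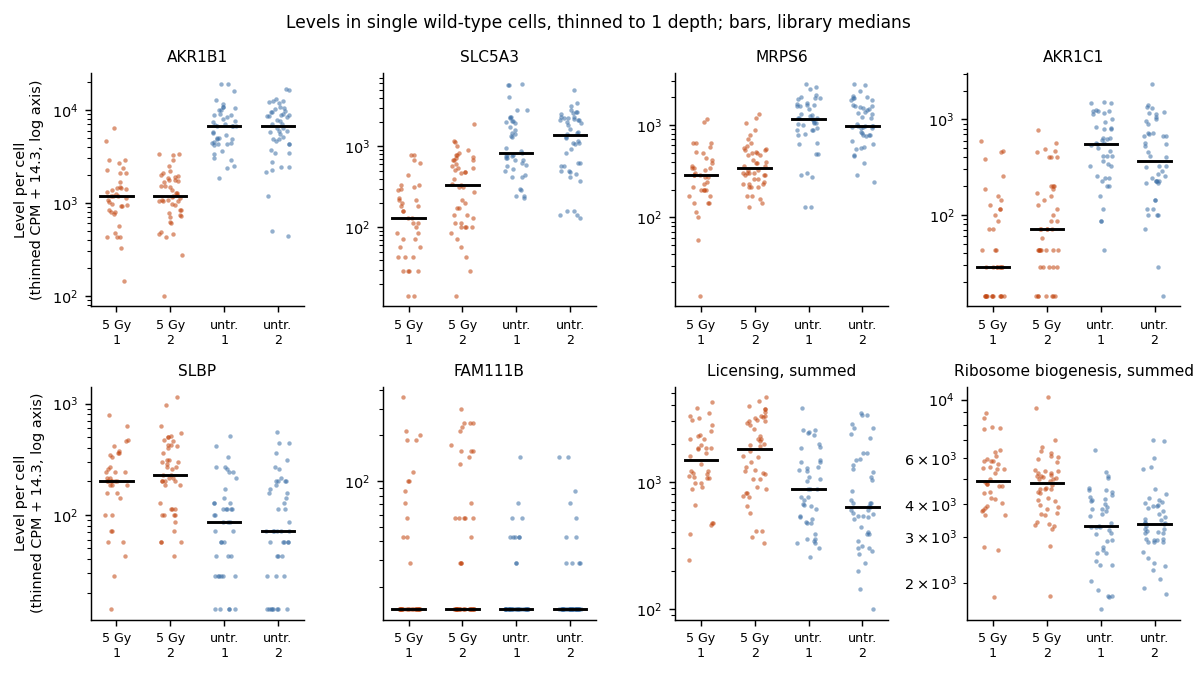
Level per cell after thinning to 70000 counts, as CPM plus 14.3 on a log axis, for 6 genes and 2 list sums in the 4 WT libraries, with bars at the medians. AKR1B1 medians are 1157 CPM in both irradiated libraries and 6657 and 6664 CPM in the untreated ones, while most cells sit at 0 for FAM111B.

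The aldo-keto reductases AKR1C1, AKR1C2 and AKR1C3, which reduce steroids and reactive carbonyls, also fell. AKR1C1 stood at 69.4 and 111 CPM in irradiated and 610 and 575 CPM in untreated libraries (-2.71, SE 0.236, adjusted p = 3.1e-05), AKR1C2 at 7.36 and 12.3 CPM in irradiated and 130 and 92.9 CPM in untreated libraries (-3.49, adjusted p = 0.000529), and AKR1C3 at 520 and 631 CPM in irradiated and 1357 and 1282 CPM in untreated libraries (-1.20, SE 0.171, adjusted p = 0.00342). All 3 were called in every alternative fit, but they are close paralogs whose reads can be split in counting. The list they belong to, with NRF2 targets and redox enzymes, had 19 of its 37 members higher and a median of 0.00. AKR1B1, described above, is also in it, and 4 members were called lower (10.8%, against 0.739% of all genes tested). These were AKR1B1 and the 3 AKR1C genes. The metallothionein MT1E was the 1 member called higher (2.70%, against 0.907%), at 124 and 143 CPM in irradiated and 58.7 and 58.7 CPM in untreated libraries (1.19, adjusted p = 0.0327). It lost its call without irradiated library 2 (0.0881), in the WT libraries alone (0.0637), in limma (0.0556) and without cells above 2 times the median, where the change was 0.66 (0.265).

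CST4 and SOX4 had the largest falls among called genes averaging 5 or more in log2 CPM. CST4, a secreted inhibitor of cysteine proteases, stood at 17.1 and 15 CPM in irradiated and 170 and 468 CPM in untreated libraries (-4.32, SE 0.544, adjusted p = 0.00141). The transcription factor SOX4 stood at 17.2 and 20 CPM in irradiated and 201 and 364 CPM in untreated libraries (-3.92, SE 0.489, adjusted p = 0.00140). For both genes the irradiated libraries were close to each other and the untreated ones far apart. CST1, a close paralog of CST4 whose reads may be shared, stood at 62.9 and 20.6 CPM in irradiated and 216 and 653 CPM in untreated libraries (-3.40, adjusted p = 0.0332, and 0.0966 without irradiated library 2). A single cell held 75.5% of the CST1 counts of irradiated library 1. For SOX4 the largest cell held 39.0% and 49.1% of the counts in irradiated and 41.4% and 54.95% in untreated libraries, and without cells above 2 times the median its change was -3.34 and it stayed called (adjusted p = 0.000614). Levels were uneven between cells: after thinning SOX4 was detected in 13.2% and 13% of irradiated and 55.8% and 69.6% of untreated cells, and CST4 in 36.8% and 39.1% of irradiated and 88.4% and 97.8% of untreated cells. Of 8 measured cystatins 3 were higher, and only CST1 and CST4 were called, both lower (25%), against 0.739% of all genes tested.

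The called members of the immediate early, AP-1 and MAP kinase feedback lists were all lower. Whether each member responds to growth factors in these cells was not tested. Of 34 immediate early and AP-1 genes 11 were higher (median -0.28). JUNB, ZFP36L1 and SOX4, whose levels are given above, were called lower (8.82%), against 0.739% of all genes tested. JUNB, an AP-1 subunit, stood at 53.1 and 43.5 CPM in irradiated and 116 and 109 CPM in untreated cells (-1.22, adjusted p = 0.0297). FOS, another AP-1 subunit, was at 150 and 110 CPM in irradiated and 170 and 135 CPM in untreated libraries, with overlap (-0.23, adjusted p = 0.780). Of 23 genes of MAP kinase feedback 6 were higher (median -0.38), and the phosphatase DUSP4, the inhibitor SPRY4 and ERRFI1, an inhibitor of the EGF receptor, were called lower. ERRFI1 stood at 202 and 137 CPM in irradiated and 329 and 584 CPM in untreated libraries (-1.43, SE 0.245, adjusted p = 0.0121), and DUSP4 at 246 and 158 CPM in irradiated and 376 and 526 CPM in untreated libraries (-1.16, adjusted p = 0.0178). ERRFI1 was called with any 1 library left out. JUNB was lost without irradiated library 1, irradiated library 2 or untreated library 1 (0.0534, 0.162 and 0.0638), ZFP36L1 without irradiated library 1 (0.205), DUSP4 without irradiated library 2 (0.0914), and SPRY4 without irradiated library 1, irradiated library 2 or untreated library 2 (0.0996, 0.116 and 0.0515).

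Of 38 NF-kB targets, chemokines and cytokines 13 were higher (median -0.30), and 3 (7.89%) were called lower, against 0.739% of all genes, while the interferon and MHC class I lists gave no call. These were the growth factor CSF1, at 237 and 268 CPM in irradiated and 451 and 427 CPM in untreated libraries (-0.80, adjusted p = 0.042), the manganese superoxide dismutase SOD2 (-1.45, adjusted p = 0.0488) and the chemokine CXCL1, which was low throughout, at 5.02 and 3.37 CPM in irradiated and 17.3 and 46.4 CPM in untreated libraries (-2.94, adjusted p = 0.0178), with 71.1% of its counts in irradiated library 1 from 1 cell. All 3 lost their call without irradiated library 2 (0.0856 to 0.145), CSF1 without irradiated library 1 (0.151) and CSF1 and SOD2 without untreated library 1 (0.0537 and 0.107). The interferon response list had 14 of 38 genes higher, a median of -0.41 and no call by edgeR, with 10 members at an unadjusted p below 0.05, 2 called lower by DESeq2's Wald test and 1 by limma. Its median ran from -0.84 without irradiated library 1 to 0.07 without untreated library 1, and 2 members were called higher without irradiated library 2. IFITM3, an antiviral membrane protein, stood at 1008 and 962 CPM in irradiated and 1367 and 1350.4 CPM in untreated libraries (-0.46, SE 0.122, adjusted p = 0.0739). GBP2, an interferon-induced GTPase outside the list, was called, at 31.9 and 54.8 CPM in irradiated and 152 and 126 CPM in untreated libraries (-1.68, SE 0.262, adjusted p = 0.00699). MHC class I presentation had 5 of 11 genes higher, 0 at an unadjusted p below 0.05 and 0 called by edgeR, DESeq2's Wald test or limma.

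Of 41 hypoxia and glycolysis genes 30 were lower and 11 higher (median -0.26), and 2 (4.88%) were called lower, against 0.739% of all genes tested. These were the angiogenic factor VEGFA, at 39.1 and 63.5 CPM in irradiated and 182 and 109 CPM in untreated libraries (-1.50, adjusted p = 0.0191), and NDRG1 (-1.24, adjusted p = 0.0175). Of 33 genes of cholesterol and fatty acid synthesis 28 were lower and 5 higher (median -0.40). The desaturase SCD (-0.76) and the sterol oxidase MSMO1 (-0.80) were called lower (6.06% of the list). HSPH1, a chaperone of the HSP110 family, was even between replicates, at 198 and 185 CPM in irradiated and 457 and 454 CPM in untreated libraries (-1.25, SE 0.175, adjusted p = 0.00314), although 19 of 27 heat shock genes were higher. The lysosomal protease CTSD fell by 0.55 on the log2 scale (adjusted p = 0.0424). Without irradiated library 1, VEGFA, NDRG1, MSMO1, SCD and CTSD lost their calls (0.0660 to 0.181), without irradiated library 2, MSMO1 and CTSD did (0.101 and 0.0678), and VEGFA did without untreated library 1 (0.0553) and CTSD without untreated library 2 (0.129).

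Among keratins, claudins and other epithelial genes 7 of 30 were higher, with a median of -0.79. The tight junction protein CLDN4 stood at 86.1 and 67.1 CPM in irradiated and 225 and 213 CPM in untreated libraries (-1.52, SE 0.194, adjusted p = 0.00151). TPD52L1 fell by 2.23 on the log2 scale (adjusted p = 0.0327). Of 42 genes of the plasminogen system, matrix and mesenchymal state 15 were higher (median -0.14). Calls lower numbered 3 (7.14%), against 0.739% of all genes tested. TIMP3, an inhibitor of matrix proteases, stood at 1133 and 1243 CPM in irradiated and 2077 and 2019 CPM in untreated libraries (-0.79, SE 0.111, adjusted p = 0.0033), PLAT, tissue plasminogen activator, at 102 and 79.7 CPM in irradiated and 202 and 271 CPM in untreated libraries (-1.38, adjusted p = 0.0172), and SERPINE2, an inhibitor of serine proteases, at 14.5 and 15 CPM in irradiated and 59.1 and 81.2 CPM in untreated libraries (-2.25, adjusted p = 0.0319). For SERPINE2 a single cell held 36.9% and 64.1% of the counts in irradiated and 70.0% and 45.4% in untreated libraries, and the call was lost without cells above 2 times the median (0.0836). CLDN4 and TIMP3 were called in every alternative fit. Without irradiated library 1, TPD52L1 and SERPINE2 lost their calls (0.104 and 0.0724), without irradiated library 2, PLAT and SERPINE2 did (0.0782 and 0.100), and TPD52L1 did without untreated library 1 (0.0916). In the list of YAP targets and actin genes 10 of 28 were higher. Called genes numbered 1 higher (3.57%, against 0.907% of all genes tested) and 1 lower (3.57%, against 0.739%). TEAD4, a partner of YAP, was called higher at 13.6 and 8.76 CPM in irradiated and 0.663 and 0.513 CPM in untreated libraries (4.22, SE 0.703, adjusted p = 0.00993). TEAD4 lost its call in the WT libraries alone (0.0734), without cells above 2 times the median (3.77, 0.0552) and in limma (2.20, 0.0684). The myosin light chain MYL12A was called lower, at 855 and 793 CPM in irradiated and 1227 and 1186 CPM in untreated libraries (-0.55, adjusted p = 0.0314), and was lost without irradiated library 1 (0.0660), irradiated library 2 (0.167) or untreated library 1 (0.0528).

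Of the 205 called genes 114 were in none of the lists. The ubiquitin ligase family member TRIM29 stood at 15.3 and 13.2 CPM in irradiated and 60.7 and 55.2 CPM in untreated libraries (-2.03, SE 0.357, adjusted p = 0.0146) and was called in every alternative fit. The bicarbonate transporter SLC4A7 stood at 25.4 and 28.1 CPM in irradiated and 92.3 and 70.2 CPM in untreated libraries (-1.60, adjusted p = 0.0086), and lost its call in the WT libraries alone (0.0543) and without cells above 2 times the median (-1.15, 0.156). The collagen lysyl hydroxylase PLOD2 stood at 114 and 124 CPM in irradiated and 284 and 306 CPM in untreated libraries (-1.31, adjusted p = 0.0164). AGFG2 fell by 1.96, GNE, an enzyme of sialic acid synthesis, by 1.62, and SIAE, which removes acetyl groups from sialic acid, by 1.59, all on the log2 scale. GNE and SIAE overlap other genes, and both lost their call without irradiated library 1 (0.0504 and 0.0818), GNE without untreated library 2 (0.0632) and SIAE without irradiated library 2 (0.172) and untreated library 1 (0.221). C4orf46 rose by 1.46 (adjusted p = 0.0448) and was lost without irradiated library 1, irradiated library 2 or untreated library 1 (0.159, 0.0704 and 0.105). ATP6V0A2, part of the V-ATPase, which acidifies vesicles, ranked first upward among the abundant genes, but it stood at 228 and 32.5 CPM in irradiated and 19.3 and 19.7 CPM in untreated libraries, 1 cell held 90.7% of its counts in irradiated library 1, and the call was lost without that library (0.634).

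ATM knockdown cells were given the same dose and time, and the difference between the irradiation effects in WT and in knockdown cells was tested in the same fit. The difference passed for 23 genes, 0.185% of those tested, 10 higher in WT (0.0803%) and 13 lower in WT (0.104%). AKR1B1 differed most clearly. It stood at 1865 and 1901 CPM in irradiated and 1537 and 1675 CPM in untreated knockdown libraries, values near those of irradiated WT cells, and the difference of effects was -2.55 (SE 0.140, adjusted p = 1.3e-07). MRPS6 stood at 162 and 146 CPM in irradiated and 159 and 152 CPM in untreated knockdown cells (difference -1.65, adjusted p = 0.00391). SLC5A3 stood at 42.5 and 38.8 CPM in irradiated and 71.8 and 52.9 CPM in untreated knockdown libraries, and its difference of -1.61 did not pass (adjusted p = 0.0907). AKR1C1, AKR1C2, HSPH1, PLAT, PLOD2, SLC4A7, PSG5 and MYL12A were also lower in the WT effect, and PSAT1 was higher, at 67.4 and 70.5 CPM in irradiated and 109 and 102 CPM in untreated knockdown libraries (difference 2.06, adjusted p = 0.0345).

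Chemokines and cytokines differed between genotypes without a call in WT cells. CXCL8, interleukin 8, stood at 10.9 and 57.5 CPM in irradiated and 92.5 and 28.0 CPM in untreated WT cells, with overlap, and at 4.36 and 2.92 CPM in irradiated and 171 and 235 CPM in untreated knockdown cells (difference 5.00, SE 0.852, adjusted p = 0.0336). IL6, CXCL2, CSF2 and BIRC3, an NF-kB target that inhibits apoptosis, differed in the same direction, with WT changes of -0.05, 0.63, 1.12 and -0.11, none of them called. In WT cells 1 cell held 50.9% and 84.6% of the CSF2 counts in irradiated and 47.9% and 41.6% in untreated libraries, and 43.9% and 44.2% of the CXCL8 counts in irradiated and 68.4% and 30.0% in untreated libraries. Among replication genes, CDT1 stood at 24.1 and 35.4 CPM in irradiated and 27.7 and 22.3 CPM in untreated knockdown cells (difference 1.41, adjusted p = 0.352), while FAM111B stood at 44.3 and 51.8 CPM in irradiated and 10.6 and 13.9 CPM in untreated knockdown cells, close to its WT levels (difference 0.16, adjusted p = 0.958). The titles of the WT libraries carry 1 suffix and those of the knockdown libraries another, so a difference in handling and the genotype cannot be told apart. Of the 23 genes 10 passed in all 11 alternative fits, among them AKR1B1, MRPS6, PLAT, HSPH1, AKR1C1, CXCL8, CXCL2, IL6 and BIRC3.

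**Figure D5:**
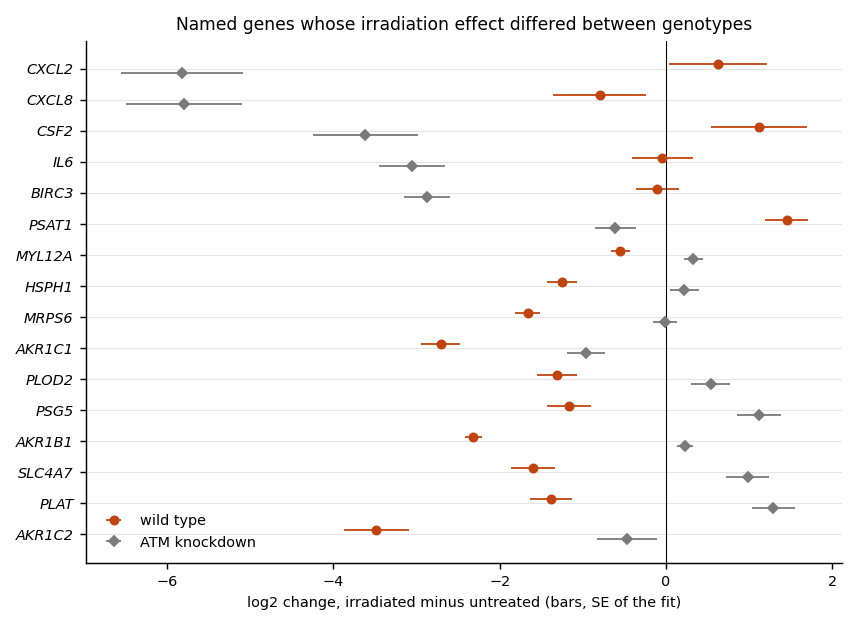
Log2 change after irradiation with its SE in WT and in ATM knockdown cells for the 16 named genes whose effects differed between genotypes. AKR1B1 stands at -2.32 in WT and 0.23 in knockdown cells, and CXCL8 at -0.80 in WT and -5.80 in knockdown cells.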

How the data were processed

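Whole-number counts per gene and cell were deposited by the authors in 1 table per library. Per the submitters' processing notes, reads were handled with Trimmomatic 0.36, HISAT2 2.1.0 and HTSeq 0.9.1 on hg38. Whether a count is a read or a molecule, and whether strand was used, is not given in the sources used here. The tables list 15041 genes, of which 10829 are in every table, and absent genes were set to 0. Positions came from GENCODE 29, which holds 15031 of the identifiers once versions are dropped and 13733 as written.

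Each library's kept cells were added up, and the sums went through filterByExpr, TMM scaling and edgeR 4.0.16 (quasi-likelihood, R 4.3.3) in 1 fit of 4 groups of 2 libraries with 4 residual degrees of freedom, adjusted by Benjamini-Hochberg. The p-values measure the spread between libraries, which may be technical. The script was tested on simulated data. Cells were thinned with a fixed seed in Python 3.11.15 (numpy 2.4.6, pandas 2.3.3, scipy 1.17.1). Intervals are not given, since cells of a library are not replicates. Alternatives used DESeq2 1.42.0 (size factors and Wald test), limma 3.58.1 on the mean CPM per cell, no scaling, other gene and cell filters, the WT libraries alone, and each library left out.

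The genes, lists and tests were chosen with earlier results of these data known. Genes were named by rule: the 15 called genes of largest change in each direction averaging 5 or more in log2 CPM and without overlap of the WT libraries, every called list member, the 2 members of smallest p of a list with no call, a fixed set that includes ATM, CDKN1A, MDM2, GDF15, PLK1 and MKI67, and for the difference between genotypes the 6 of largest change in each direction. POLE4, TRIM29 and the other genes outside lists came from the first part. The results of 1 list and of some genes that the rule takes are not reported here.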

Additional observations from a re-analysis of the deposited data

Results flagged for a closer look

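The effect of irradiation differed between WT and ATM knockdown cells, by edgeR's test of the difference itself, for 16 of the genes named. Differences are the log2 change in WT minus that in knockdown cells, with the SE and the adjusted p. In edgeR's fit AKR1B1 differed by -2.55 (SE 0.140, adjusted p = 1.3e-07), MRPS6 by -1.65 (SE 0.202, adjusted p = 0.00391), PLAT by -2.67 (SE 0.359, adjusted p = 0.00531) and SLC4A7 by -2.58 (SE 0.365, adjusted p = 0.00727). In the same edgeR fit AKR1C1 differed by -1.75 (SE 0.318, adjusted p = 0.0367), AKR1C2 by -3.02 (SE 0.521, adjusted p = 0.0345), HSPH1 by -1.47 (SE 0.246, adjusted p = 0.0336), PSG5 by -2.28 (SE 0.371, adjusted p = 0.0287), PLOD2 by -1.85 (SE 0.333, adjusted p = 0.0367) and MYL12A by -0.88 (SE 0.166, adjusted p = 0.0480).

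Differences above 0 in edgeR's fit were found for PSAT1 at 2.06 (SE 0.357, adjusted p = 0.0345), CXCL8 at 5.00 (SE 0.852, adjusted p = 0.0336), IL6 at 3.00 (SE 0.530, adjusted p = 0.0367), CXCL2 at 6.45 (SE 0.921, adjusted p = 0.00727), CSF2 at 4.73 (SE 0.846, adjusted p = 0.0367) and BIRC3 at 2.77 (SE 0.373, adjusted p = 0.00531). With cells of over 2 times the median count left out, PSAT1 (0.460), AKR1C2 (0.254), SLC4A7 (0.191), PSG5 (0.172), PLOD2 (0.134) and MYL12A no longer passed, and MYL12A also failed without irradiated WT library 2, irradiated knockdown library 2 or either untreated knockdown library (0.0531 to 0.176 over these fits). CSF2 did not pass in DESeq2's Wald test (0.0545). The causes were not tested.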

How the results depend on the processing

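The 205 calls (113 higher, 92 lower) became 534 (276 and 258) with no filter, 322 at an average log2 CPM of at least 5 (167 lower), 33 (5 and 28) in the WT libraries alone, 130 (66 higher) without cells above 2 times the median and 569 (316 and 253) in DESeq2's Wald test. With 1 library left out they ran from 89 without irradiated WT library 2 (51 higher, 38 lower) to 376 without untreated knockdown library 1 (194 and 182). They stood at 129 without irradiated WT library 1 and at 375 without untreated knockdown library 2. Called list members, 91, became 165 with no filter, 17 in the WT libraries alone and 152 in the Wald test, and ran from 47 to 127 with a library left out. Named genes past the threshold, 101, became 20 in the WT libraries alone and 57 without cells above 2 times the median, and ran from 50 to 107 with a library left out. The 23 differences between genotypes became 135 in the Wald test, and ran from 31 to 128 with a library left out, 128 being without untreated WT library 1. Of the called genes named, 4 were lost with DESeq2's size factors, 5 with no scaling, 3 in the Wald test and 25 in limma, and none reversed. Where a library left out leaves a group with 1, that library is taken to vary like the other groups. Of 646 list medians recomputed, 36 changed sign, among them those of the G2/M, apoptosis and interferon lists. Scaling moved the median change of all genes by at most 0.0212. The causes were not tested.

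No paired analysis was possible because the labels give the libraries no shared replicate numbers. Depth limits low genes most: 3 counts are 0.322 CPM in irradiated WT library 1 and 0.152 CPM in library 2.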
